A study of Mus musculus with 77 samples.

Results

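Expression of 50 genes of the TGF-beta and bone morphogenetic protein (BMP) pathway was examined in mouse pancreatic ductal organoids made to express Ngn3, the proneural transcription factor that starts endocrine differentiation. The 50 genes were taken by symbol from the 46078 genes of the deposited count table, and each matched 1 Ensembl identifier. They comprise 6 TGF-beta and activin ligands, 8 BMP and growth differentiation factor (GDF) ligands, 11 receptors, 6 extracellular antagonists, 6 genes for latent TGF-beta binding proteins and matrix processing, 6 SMADs that carry the signal, and 7 intracellular inhibitors.

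The organoids were grown from ducts of adult C57BL/6 mice and infected with lentiviral Tet-on vectors that express GFP only, GFP with wild-type Ngn3 (WT Ngn3), or GFP with 6S-A Ngn3, a mutant in which the serines of 6 serine-proline sites are alanine. At 2 days of induction, GFP+ cells of the 3 kinds were sorted. At 8 days, GFP+ cells with WT Ngn3 or 6S-A Ngn3 were sorted together with cells of the same organoids that lacked the reporter color (no-color WT and no-color 6S-A), and no GFP-only group was listed. Each of the 7 groups had 3 biological replicates, each made of 1 to 6 pools of 50 cells that are technical repeats. Organoids were of passage 2, except replicate 3 at 8 days, which was of passage 5. The growth medium of all groups contained recombinant Noggin, a secreted inhibitor of BMPs. Nothing in the labels says whether the replicates came from separate animals or infections, so p-values measure the spread between these samples only.

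Ligands of this family bind pairs of type I and type II receptor kinases at the cell surface. TGF-beta and activin receptors phosphorylate SMAD2 and SMAD3, BMP receptors phosphorylate SMAD1, SMAD5 and SMAD9, and both kinds of complex enter the nucleus with SMAD4. The pathway is restrained outside the cell by proteins that trap ligands, such as Noggin, Chordin and Follistatin, and inside it by SMAD6, SMAD7, the decoy receptor BAMBI and nuclear corepressors. In the pancreas it is known for its part in the growth of the embryonic epithelium and in the choice between duct and endocrine fates.

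Levels are given as CPM, the reads of a gene per 1000000 reads on genes, scaled by the trimmed mean of M values (TMM), for replicates 1, 2 and 3 in that order. Reads on genes per replicate ranged from 17757303 to 26627347 at 2 days and from 2397470 to 17919627 at 8 days, where 3 reads correspond to between 0.181 and 1.73 CPM. Neurog3, the gene of the transgene, was at no more than 0.0731 CPM with GFP only and between 89.6 and 206 CPM with either protein at 2 days. Ductal markers summed to between 9991 and 40090 CPM over all 21 replicates, with Spp1 the largest part, and they were lower with Ngn3 at 2 days (between 9991 and 12136) than with GFP only (between 17264 and 18905). Krt7 was at 869 CPM or more and Sox9 at 49.9 CPM or more in every replicate, while Cftr was at 0 to 15.7 CPM. Of the 10 ductal markers 5 passed lower with either protein at 2 days, and Cdh1 was higher in every Ngn3 replicate (907 to 1319 CPM against 536 to 876) and passed with the replicate block alone (adjusted p = 0.00025 and 0.00018). Epcam was low in replicate 1 of each group of 8 days, at 111 to 554 CPM against 850 to 1902 CPM in the other two. The summed endocrine markers rose from at most 2.66 CPM with GFP only to between 328 and 1727 CPM with Ngn3 at 2 days. Neurog3 itself is in that list, so part of the rise is the transgene. All 6 endothelial markers together reached at most 10.3 CPM, the 6 immune markers 22.5 CPM and the 8 acinar markers 18.5 CPM. Within these sums the endothelial ones were at 0.879 to 1.5 CPM with GFP only and 2.68 to 10.3 CPM with 6S-A Ngn3 at 2 days, where 1 of 4 tested passed higher. In the same fit 1 of 3 immune markers passed lower with either protein and 1 of 5 acinar markers lower with WT Ngn3. Of 10 mesenchymal markers, 8 were tested at 2 days and Vim alone passed, at between 6.91 and 13.2 CPM with GFP only and between 46.1 and 104 CPM with Ngn3 (log2 fold change 2.77, adjusted p = 0.000279 with WT, and 2.67, adjusted p = 0.000215 with 6S-A). Col1a1 stayed at or under 2.6 CPM in every replicate. The part of these differences in the results below was not tested. In sorted pools, fewer cells that express a gene and less RNA per cell cannot be told apart.

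In the GFP-only cells RNA of most receptors and SMADs of the pathway was present, with little RNA of Bmp2, Bmp6 or Chrd. Per kilobase of exons (RPKM), the mean level at 2 days was highest for Tgif1 (102 RPKM), a homeodomain corepressor of SMADs. It was followed by the ligand Tgfb3 (47.8 RPKM), Smad3 (42.2 RPKM) and Fst (39.7 RPKM), which encodes the activin trap Follistatin. The mean levels of Tgfbr2, Bmpr1a, Smad4 and Tgfbr1 were 22.4, 17.3, 16.3 and 10.4 RPKM. Bmp2 was at 1.03 RPKM, Bmp6 at 0.199 RPKM and Chrd at 0.0347 RPKM, while Bmp4 was at 5.66 RPKM. The receptor genes Acvrl1, Tgfbr3 and Bmpr1b were at 0.37, 0.077 and 0.051 RPKM, and Smad9 was at 0 RPKM. In the cells with 6S-A Ngn3 at 2 days, Bmp2 stood at 25.4 RPKM, Bambi at 26.9 RPKM and Tgfbr1 at 31.4 RPKM, and Fst had a mean level of 4.98 RPKM. The members Tgfbi, a matrix protein gene that TGF-beta induces, and Smad9, a BMP SMAD, were at or under 0.989 CPM in every replicate and were not tested. The receptor gene Bmpr1b and the BMP antagonist gene Grem1 also stayed under 1 CPM, and were tested at 2 days only.

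At 2 days, WT Ngn3 was compared with GFP only to ask which members respond to the wild-type protein. Of the 50 members, 48 were tested, 10 rose and 5 fell, while 33 did not pass. This is 20.8% of those tested higher and 10.4% lower, beside 6.56% higher and 5.23% lower among the 23844 genes tested. Of the 23844, 10031 had a mean of at least 10 CPM, and the shares were not matched for level. The members were also chosen with earlier results of these data known. The members that rose were Tgfb1, Inhbb, Bmp2, Bmp6, Gdf11, Tgfbr1, Tgfbr2, Chrd, Bmp1 and Bambi, and those that fell were Tgfb2, Inhba, Gdf15, Ltbp3 and Smad7. With 6S-A Ngn3 these 15 moved in the same directions and passed too. That comparison uses the same GFP-only samples, so it is no independent repeat. A further 5 passed with 6S-A Ngn3: Smad5 rose, and Fst, Ltbp1, Skil and Tgif1 fell. In all, 11 rose and 9 fell with 6S-A Ngn3, or 22.9% and 18.8% of those tested, beside 9.43% and 8.62% of all genes. The median log2 fold change of the 48 was -0.05 with WT and 0.03 with 6S-A Ngn3, against 0.01 and 0.02 over all genes. In a fit blocked on replicate number 12 members rose and 7 fell with WT, beside 9.47% and 8.53% of all genes, and 14 rose and 10 fell with 6S-A Ngn3, beside 12.7% and 12.1%.

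**Figure D1:**
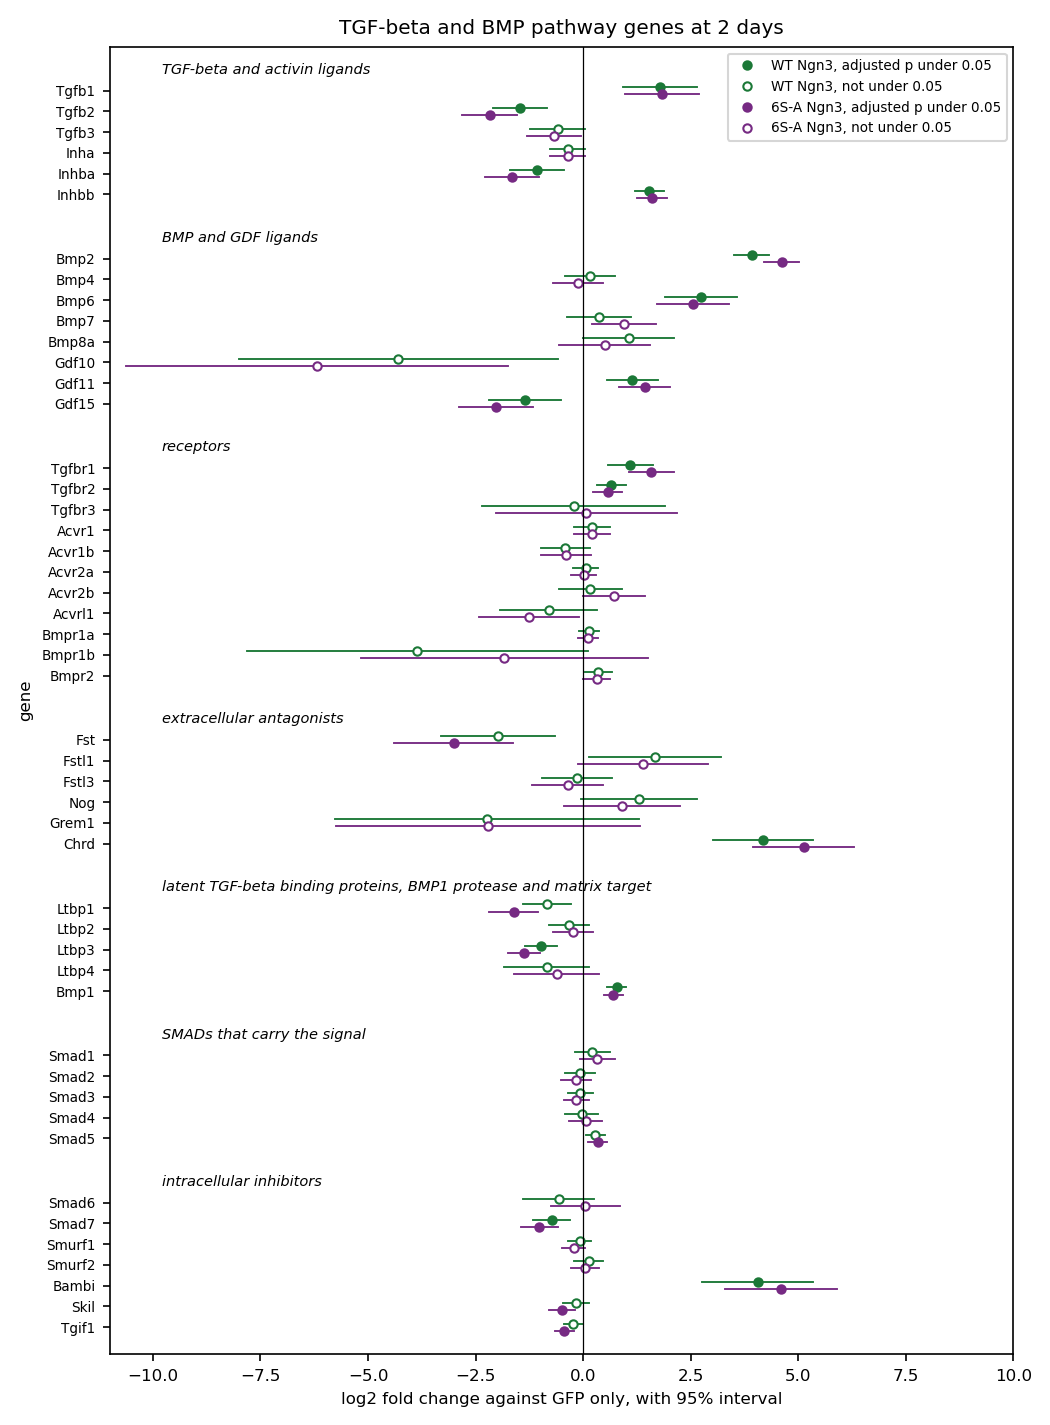
The log2 fold change of each of the 48 members tested at 2 days against GFP only (x axis), with WT Ngn3 in green and 6S-A Ngn3 in purple. Bars are 95% intervals of the fit over 3 replicates per group and filled points have an adjusted p under 0.05. Members are grouped by role; Chrd, Bambi and Bmp2 stand farthest to the right, and Fst and Tgfb2 are the lowest of the filled points.

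Among the BMP ligands, Bmp2 made the clearest rise. It encodes a ligand of the BMP receptors known for its part in bone and heart formation, and lies at chr2:133552159-133562885 (GRCm38, plus strand). Its levels were 4.06, 2.89 and 4.07 CPM with GFP only, 58.1, 64.2 and 42.8 CPM with WT Ngn3, and 88.6, 89.7 and 92.3 CPM with 6S-A Ngn3. No replicate of one group overlapped another. The rise was 15.1-fold with WT Ngn3 (log2 fold change 3.91, SE 0.19, adjusted p = 2.96e-08) and 24.5-fold with 6S-A Ngn3 (log2 fold change 4.62, SE 0.19, adjusted p = 6.2e-09). Bmp6, a related ligand, was at 0.402, 1.00 and 0.925 CPM with GFP only and at 4.32, 5.03 and 6.11 CPM with WT Ngn3. Its log2 fold change was 2.74 (SE 0.39, adjusted p = 0.000304) with WT and 2.55 (SE 0.39, adjusted p = 0.000328) with 6S-A Ngn3, which gave 3.48, 5.41 and 4.82 CPM. The first technical repeat of each replicate was also fitted alone. At 2 days that fit gave all genes 1 common spread, so it does not weigh how a gene varies between replicates. In it the log2 fold changes were 0.87 (SE 1.05, adjusted p = 0.795) and 0.52 (SE 1.08, adjusted p = 0.903), and the calls were lost. Bmp6 shares 224 exonic bases with Txndc5 on the other strand, and the log2 fold changes of Txndc5 itself, 0.21 for WT and 0.23 for 6S-A, did not pass (adjusted p = 0.349 and 0.231). Bmp4 passed with neither protein (adjusted p = 0.81 and 0.856), at a mean of 12.7 ± 2.09 CPM with GFP only, 14.2 ± 3.33 with WT and 11.8 ± 4.002 with 6S-A Ngn3 (SD, n = 3). Bmp7 passed with neither protein (adjusted p = 0.632 and 0.0791), though without GFP-only replicate 1 it passed with 6S-A Ngn3 (0.0481). Bmp8a was at no more than 4.05 CPM in any replicate, and reads it shares with its close copy Bmp8b may be missing from it.

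Of the GDF ligands, Gdf11, which signals through activin-type receptors, rose from 8.59, 9.35 and 12.1 CPM to 15.2, 19.7 and 31.3 CPM with WT and 23.2, 22.2 and 35.4 CPM with 6S-A Ngn3. The rise was 1.15 on the log2 scale (SE 0.27, adjusted p = 0.0132) and 1.43 (SE 0.27, adjusted p = 0.00209). All Ngn3 replicates lay above all GFP-only replicates. Gdf15, a stress-induced hormone that signals through the receptor GFRAL, fell from 49.6, 44.3 and 72.1 CPM to 19.3, 18.1 and 27.4 CPM with WT and 6.78, 11.8 and 22.5 CPM with 6S-A Ngn3, again without overlap. Its log2 fold change was -1.35 (SE 0.38, adjusted p = 0.0434) and -2.02 (SE 0.39, adjusted p = 0.00426). With WT Ngn3, Gdf15 lost the call without any 1 of the GFP-only or WT replicates, or without 6S-A replicate 2 (adjusted p between 0.0575 and 0.143). Gdf11 lost it without GFP-only replicate 1 or 2 or WT replicate 3 (between 0.0549 and 0.0604), and with first technical repeats alone it passed with neither protein (0.97 and 0.46 on the log2 scale, adjusted p = 0.244 and 0.685). Gdf10 held few reads at 2 days, 0.925 CPM at most, and with 6S-A Ngn3, where it had 0 reads, it did not pass (adjusted p = 0.056, and 0.0199 without GFP-only replicate 1).

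Of the 6 TGF-beta and activin ligands, 2 rose, 2 fell and 2 did not pass with either protein. This is 33.3% higher and 33.3% lower, beside 6.56% and 5.23% of all genes with WT and 9.43% and 8.62% with 6S-A Ngn3. Tgfb1, which encodes the founding ligand of the family, rose from 3.15, 1.19 and 2.54 CPM with GFP only to 11.6, 6.07 and 5.96 CPM with WT and 11.3, 5.93 and 7.18 CPM with 6S-A Ngn3. All Ngn3 replicates were above all GFP-only replicates, by a log2 fold change of 1.79 (SE 0.40, adjusted p = 0.00882) with WT and 1.83 (SE 0.40, adjusted p = 0.00502) with 6S-A Ngn3. Tgfb2 (chr1:186622792-186705989, minus strand) went from 23.9, 18.9 and 27.5 CPM to 11.6, 8.69 and 5.12 CPM with WT and 6.41, 5.52 and 3.70 CPM with 6S-A Ngn3, without overlap with GFP only. Its log2 fold change was -1.46 (SE 0.29, adjusted p = 0.00428) and -2.17 (SE 0.30, adjusted p = 0.000156). The WT call was lost with first technical repeats alone (-1.19, adjusted p = 0.278). Tgfb3, the most abundant of the 3 per kilobase, had means of 162 ± 22.8, 106.5 ± 32.6 and 101 ± 37.3 CPM (SD, n = 3) and did not pass (adjusted p = 0.256 and 0.147). With the replicate number as a block it passed in both comparisons (adjusted p = 0.0028 and 0.00068). Replicate 3 had the lowest Tgfb3 in each of the 7 groups, and in none of the comparisons at 2 days did the Ngn3 and GFP-only replicates overlap.

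The activin subunits split in the same way. Inhbb (chr1:119415465-119422248, minus strand), which encodes the subunit of activin B, rose from 20.3, 28.2 and 24.4 CPM to 65.8, 85.9 and 59.5 CPM with WT and 70.5, 70.6 and 81.2 CPM with 6S-A Ngn3. No Ngn3 replicate overlapped a GFP-only replicate, and the change was 2.91-fold (log2 fold change 1.54, SE 0.16, adjusted p = 2.55e-05) and 3.04-fold (1.61, SE 0.16, adjusted p = 9.79e-06). Inhba, which encodes the subunit of activin A, fell from 34.9, 20.2 and 40.9 CPM to 11.0, 19.5 and 15.03 CPM with WT Ngn3 and to 8.19, 8.90 and 13.5 CPM with 6S-A Ngn3. This gave a log2 fold change of -1.07 (SE 0.29, adjusted p = 0.0263) and -1.65 (SE 0.29, adjusted p = 0.00127). The WT and GFP-only replicates nearly touched, and the WT call was lost without GFP-only replicate 1 or 3 or WT replicate 1 or 3 (adjusted p between 0.0721 and 0.0986). Inha, the inhibin subunit, was at 11.2 ± 0.343 CPM with GFP only and 8.65 ± 0.305 CPM with WT Ngn3 (SD, n = 3) and did not pass (adjusted p = 0.293).

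**Figure D2:**
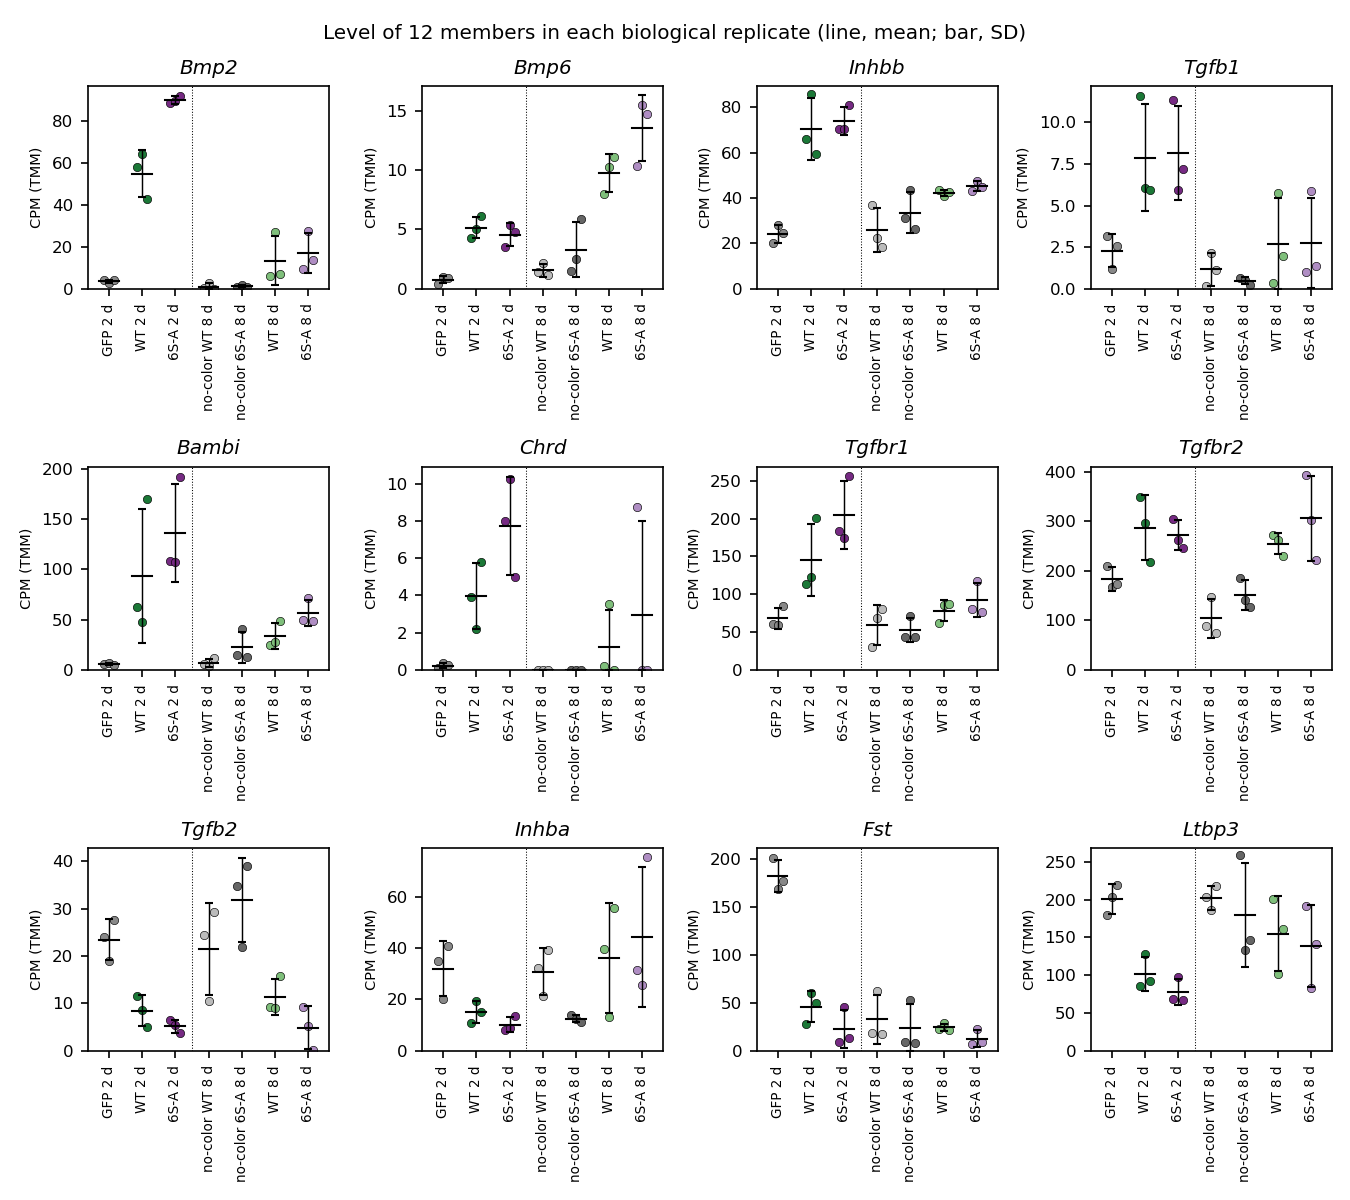
CPM (y axis, linear from 0) of 12 members in each of the 3 biological replicates of the 7 groups, with the mean as a line and the SD as a bar that is not drawn below 0; the dotted line parts 2 from 8 days. Bmp2, Bambi and Inhbb are higher in all Ngn3 replicates of 2 days than in any GFP-only replicate, while Tgfb2, Inhba, Fst and Ltbp3 are lower.

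Outside the cell, the ligand traps Chrd and Fst moved far in opposite directions. Chrd (chr16:20733127-20742384, plus strand) encodes Chordin, which binds BMP2, BMP4 and BMP7 and keeps them from their receptors. It was at 0.0731, 0.346 and 0.231 CPM with GFP only, at 3.92, 2.20 and 5.76 CPM with WT Ngn3 and at 7.96, 10.2 and 4.997 CPM with 6S-A Ngn3. Every Ngn3 replicate was above every GFP-only replicate. The rise was 4.18 on the log2 scale (SE 0.54, adjusted p = 0.000152) and 5.13 (SE 0.55, adjusted p = 1.56e-05). First technical repeats alone gave 2.36 (SE 1.20, adjusted p = 0.382) and 2.17 (SE 1.22, adjusted p = 0.389), which did not pass. Chrd shares 239 exonic bases with Thpo on the other strand. Thpo also rose, by 3.87 on the log2 scale with WT Ngn3 (SE 1.16, adjusted p = 0.0452) and 3.93 with 6S-A Ngn3 (SE 1.16, adjusted p = 0.0299). The strand setting is not given, and 8.06% of reads were set aside as ambiguous between genes. Whether reads of the shared bases were counted for Chrd, for Thpo or for neither is thus not known. Fst (chr13:114452290-114458951, minus strand) was at 202, 169 and 177 CPM with GFP only, at 28.4, 59.9 and 50.1 CPM with WT Ngn3 and at 9.66, 45.3 and 13.6 CPM with 6S-A Ngn3. Every Ngn3 replicate was far below every GFP-only replicate, but the Ngn3 replicates varied among themselves. The log2 fold change of -3.01 with 6S-A Ngn3 (SE 0.59) passed (adjusted p = 0.0106), and that of -1.98 with WT Ngn3 (SE 0.56) did not (adjusted p = 0.0688). The WT value passed without 6S-A replicate 1 (adjusted p = 0.0276) or 2 (0.000255), which share the estimate of the spread, and also in the DESeq2 test, with edgeR's own filter and, in the fit with 1 spread for all genes, with first technical repeats. Of the other antagonists, Nog was at no more than 1.70 CPM at 2 days, beside the recombinant Noggin of the medium. Fstl1 passed with neither protein: replicates 1 and 2 with WT Ngn3 were at 100 and 107 CPM and replicate 3 at 24.7 CPM, against 18.7, 31.4 and 23.2 CPM with GFP only, and it passed without that replicate (adjusted p = 0.0387). With first technical repeats alone it passed with both proteins (1.69 and 1.42 on the log2 scale), in the fit with 1 spread for all genes. Fstl3, a Follistatin relative, ranged from 3.20 to 10.9 CPM at 2 days and shares 1157 exonic bases with Prss57.

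The pools behind these replicates showed the same split. Of 18 GFP-only pools, the highest reached 6.95 CPM of Bmp2, whereas the lowest of the 18 WT Ngn3 pools was at 12 CPM (median 56.6, highest 100) and the lowest of the 18 6S-A Ngn3 pools at 55.1 CPM (median 86.1, highest 119). Bambi did not overlap either, with a highest GFP-only pool of 13.1 CPM and lowest pools of 18.2 CPM with WT and 85.8 CPM with 6S-A Ngn3. Inhbb parted without overlap as well, since GFP-only pools ended at 34 CPM and Ngn3 pools began at 41.7 CPM with WT and 37.7 CPM with 6S-A Ngn3. Chrd reads were found in 4 of 18 GFP-only pools, in 17 of 18 pools with WT Ngn3 and in all 18 with 6S-A Ngn3. For Fst, the lowest GFP-only pool was at 80.3 CPM, the WT pools ran from 9.06 to 103 CPM and the 6S-A pools from 2.69 to 65.4 CPM. The 6S-A pools of replicate 2 held most of the high Fst values. Tgfb2 overlapped, with pools from 11.1 to 36.9 CPM for GFP only, 1.22 to 25 CPM for WT and 0.878 to 12.6 CPM for 6S-A Ngn3. Pools of a replicate share their organoids, so no test was made over pools.

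**Figure D3:**
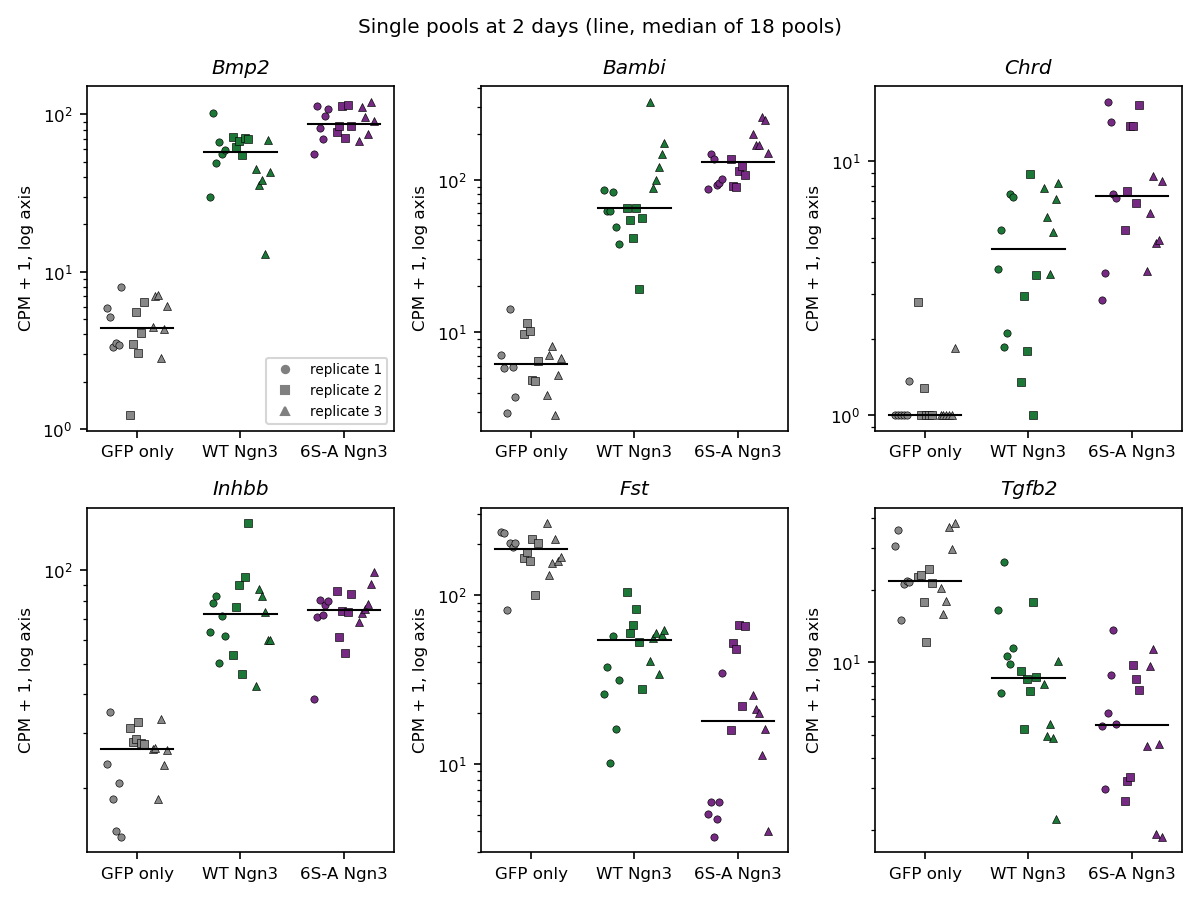
CPM + 1 on a log axis of 6 members in each of the 18 pools per group at 2 days, with marker shapes for the 3 biological replicates and the median as a line. Pools of Bmp2, Bambi and Inhbb lie apart from the GFP-only pools, and those of Fst and Tgfb2 lie mostly below them.

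Over the 18 WT Ngn3 pools, Bmp2 followed Neurog3 on the scale of log2(CPM + 1) with r = 0.57 (Spearman's rho 0.24), and with r = 0.70 after the mean of each replicate was taken out. Over the 18 6S-A pools the values were r = 0.03, rho 0.08 and 0.15. Other members gave other orders. Within replicates, r with WT and 6S-A Ngn3 was 0.20 and 0.54 for Bmp6, -0.08 and 0.49 for Inhbb, 0.20 and 0.33 for Bambi, 0.26 and 0.10 for Chrd, and 0.01 and 0.17 for Tgfb2. For Fst it was 0.02 and -0.35, and over all pools r was -0.37 and -0.53 (rho -0.46 and -0.50). These are descriptions, since pools share replicates and both genes of a pair come from the same library.

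The bases before the start sites of members that moved are given because Ngn3 is a DNA-binding factor with a known motif. Neurogenins bind E-boxes, CANNTG, a pattern that is its own reverse complement, so that a search of one strand covers both. Promoter entries of RefSeq on GRCm38.p6 were matched for 37 of the 50 members, with 50 start sites among them. In the 250 bases upstream, 23 of these 50 (46%) held CANNTG, against 66.2% of 32817 start sites of all genes. The form CAGATG, searched on both strands and a special case of CANNTG, was in 5 (10%) against 14.5%. Shown are the members with an entry that rose most and fell most with WT Ngn3, 2 of each, 5′ to 3′ on the strand of the gene and with CANNTG in capitals. Chrd lies at chr16:20732877-20733126 on the plus strand, Bmp6 at chr13:38345466-38345715 on the plus strand, Tgfb2 at chr1:186705990-186706239 on the minus strand and Gdf15, at the first listed of its starts, at chr8:70632457-70632706 on the minus strand. The Bmp6 window is upstream of the RefSeq start only. In the reference annotation the gene begins at chr13:38345107, so the window lies inside it.
Chrd: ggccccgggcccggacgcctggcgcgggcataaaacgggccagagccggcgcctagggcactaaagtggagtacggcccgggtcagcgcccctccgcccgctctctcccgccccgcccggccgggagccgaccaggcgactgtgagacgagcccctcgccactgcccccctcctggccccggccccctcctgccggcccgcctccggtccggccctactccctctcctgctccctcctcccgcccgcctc
Bmp6: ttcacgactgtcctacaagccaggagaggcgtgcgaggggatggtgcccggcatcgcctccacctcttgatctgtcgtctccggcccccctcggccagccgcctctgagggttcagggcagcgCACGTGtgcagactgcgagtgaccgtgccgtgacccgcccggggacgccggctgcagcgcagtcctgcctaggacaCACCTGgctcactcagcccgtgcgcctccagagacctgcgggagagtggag
Tgfb2: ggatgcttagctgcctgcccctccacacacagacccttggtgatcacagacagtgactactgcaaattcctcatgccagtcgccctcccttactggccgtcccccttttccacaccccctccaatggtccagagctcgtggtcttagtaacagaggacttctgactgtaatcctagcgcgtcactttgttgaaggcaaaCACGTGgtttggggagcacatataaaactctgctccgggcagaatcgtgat
Gdf15: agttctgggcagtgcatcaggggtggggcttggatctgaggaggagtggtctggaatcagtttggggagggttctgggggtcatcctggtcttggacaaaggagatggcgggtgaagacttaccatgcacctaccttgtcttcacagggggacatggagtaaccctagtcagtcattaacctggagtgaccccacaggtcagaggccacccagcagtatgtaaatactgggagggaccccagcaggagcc
The window of Bmp6 held 2 matches, that of Tgfb2 held 1 and those of Chrd and Gdf15 held 0. A match is no evidence of binding, and its lack in this window says nothing of sites elsewhere.

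Both kinases of the TGF-beta receptor rose. Tgfbr1 encodes the type I kinase and was at 61.0, 59.7 and 84.0 CPM with GFP only, 113, 122.6 and 201 CPM with WT Ngn3 and 184, 174 and 257 CPM with 6S-A Ngn3. Its log2 fold change was 1.098 (SE 0.24, adjusted p = 0.00931) and 1.58 (SE 0.24, adjusted p = 0.000574), and the WT call was lost with no filter on low counts (adjusted p = 0.0513). Tgfbr2, the type II kinase, was at 210, 167 and 173 CPM with GFP only and at 348, 296 and 218 CPM with WT and 305, 263 and 247 CPM with 6S-A Ngn3. No Ngn3 replicate was below a GFP-only one, and the rise was 0.66 on the log2 scale (SE 0.16, adjusted p = 0.0143) and 0.57 (SE 0.16, adjusted p = 0.0227). It lost the call with WT Ngn3 without GFP-only replicate 2 or 3 or WT replicate 1 (adjusted p between 0.0619 and 0.0802), and with 6S-A Ngn3 without GFP-only replicate 2 or 3 or 6S-A replicate 1 (between 0.086 and 0.111). First technical repeats alone ended both calls (0.451 and 0.273). None of the other 9 receptors passed at 2 days, so 18.2% of the 11 rose with either protein, beside 6.56% of all genes with WT and 9.43% with 6S-A Ngn3. With the block 3 and 4 of the 11 passed, beside 9.47% and 12.7%. The BMP type I receptor Bmpr1a had means of 110 ± 9.44, 120 ± 2.26 and 119 ± 3.41 CPM (SD, n = 3), and the 95% interval of its log2 fold change ran from -0.10 to 0.36 with WT Ngn3. For the activin type II receptor Acvr2a the interval was -0.23 to 0.35. The BMP type II receptor Bmpr2 passed with the replicate block (adjusted p = 0.038 with WT and 0.049 with 6S-A Ngn3) and without GFP-only replicate 3 (0.0241 and 0.0262). Acvr2b, an activin type II receptor, passed with the block for 6S-A Ngn3 alone (0.043). Tgfbr3, Acvrl1 and Bmpr1b were at or under 1.77 CPM in every replicate of 2 days.

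Of the 5 tested SMADs that carry the signal, 0 passed with WT Ngn3 (1 at an unadjusted p under 0.05, 1 in DESeq2 and 1 with the replicate block, Smad5 each time) and 1 with 6S-A Ngn3 (2 with the block). Here 1 gene is 20% of the 5, beside 6.56% of all genes higher with WT and 9.43% with 6S-A Ngn3 (9.47% and 12.7% with the block). At an unadjusted p under 0.05 the share of all genes with WT was 23%, in either direction. The 95% intervals of the log2 fold change with WT Ngn3 were -0.19 to 0.62 for Smad1, -0.42 to 0.28 for Smad2, -0.36 to 0.23 for Smad3 and -0.42 to 0.35 for Smad4, so a change of 2-fold lies outside all 4. Smad3, the most abundant, was at 248, 195 and 260 CPM with GFP only and 240, 240 and 188 CPM with WT Ngn3. Smad5, a BMP SMAD, rose with 6S-A Ngn3 from 78.3, 76.4 and 79.2 CPM to 95.8, 96.4 and 105 CPM, by 0.34 on the log2 scale (SE 0.10, adjusted p = 0.0342). With WT Ngn3 it was at 88.9, 94.6 and 98.9 CPM (adjusted p = 0.108, and 0.021 with the replicate block). Smad1 passed with 6S-A Ngn3 in the blocked fit alone (0.33 on the log2 scale, adjusted p = 0.021). The Smad5 call was lost without any 1 of the GFP-only or 6S-A replicates or WT replicate 2 (adjusted p between 0.0546 and 0.135).

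Of the 7 intracellular inhibitors, 1 rose with either protein, and 1 fell with WT and 3 with 6S-A Ngn3. These are 14.3% higher and 14.3% lower with WT, and 14.3% and 42.9% with 6S-A Ngn3, beside 6.56% and 5.23%, and 9.43% and 8.62%, of all genes. BAMBI is a receptor-like protein without a kinase domain that blocks type I receptors. Bambi went from 5.81, 6.54 and 4.49 CPM with GFP only to 62.1, 47.4 and 170 CPM with WT and 109, 108 and 193 CPM with 6S-A Ngn3, with replicate 3 the highest in both. The rise was 16.7-fold with WT (log2 fold change 4.06, SE 0.56, adjusted p = 0.00233) and 24.2-fold with 6S-A Ngn3 (4.60, SE 0.57, adjusted p = 0.00084). Smad7, the inhibitory SMAD that TGF-beta itself induces, fell from 50.9, 42.1 and 72.6 CPM to 31.7, 35.1 and 32.7 CPM with WT and 24.99, 23.0 and 34.0 CPM with 6S-A Ngn3. The values on the log2 scale were -0.73 (SE 0.20, adjusted p = 0.0285) and -1.02 (SE 0.20, adjusted p = 0.0025), and the WT call was lost without GFP-only replicate 3 or any 1 of the WT replicates (adjusted p between 0.0645 and 0.109). With 6S-A Ngn3, the corepressor genes Skil and Tgif1 fell a little. Skil was at 249, 226 and 340 CPM with GFP only and at 193, 194 and 195 CPM with 6S-A Ngn3 (log2 fold change -0.49, SE 0.14, adjusted p = 0.0269). It lost the call without GFP-only replicate 3 or any 1 of the 6S-A replicates (between 0.0677 and 0.0791). Tgif1 was at 589, 543 and 582 CPM and at 408, 436 and 424 CPM (log2 fold change -0.44, SE 0.10, adjusted p = 0.00833), and first technical repeats alone gave -0.20 (adjusted p = 0.757). Smad6 and the ubiquitin ligases Smurf1 and Smurf2 did not pass.

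Of the 5 tested genes for matrix storage and processing, 1 rose and 1 fell with WT Ngn3, and 1 rose and 2 fell with 6S-A Ngn3. The shares are 20% and 20% with WT, and 20% and 40% with 6S-A Ngn3, of so few genes that 1 gene makes 20%, beside 6.56% and 5.23%, and 9.43% and 8.62%, of all genes. Ltbp3, a latent TGF-beta binding protein, fell from 180, 204 and 219 CPM to 85.1, 128 and 91.8 CPM with WT and 68.5, 97.8 and 67.5 CPM with 6S-A Ngn3. No replicate overlapped GFP only, and the log2 fold change was -0.98 (SE 0.17, adjusted p = 0.0019) and -1.37 (SE 0.18, adjusted p = 8.24e-05). Ltbp1 was at 45.8, 44.6 and 39.9 CPM with GFP only, 22.3, 33.5 and 16.3 CPM with WT and 11.8, 20.1 and 10.8 CPM with 6S-A Ngn3. It passed with 6S-A Ngn3 (log2 fold change -1.61, SE 0.26, adjusted p = 0.000744) and missed the threshold with WT Ngn3 (-0.85, SE 0.26, adjusted p = 0.0504, and 0.0012 with the replicate block). Without 6S-A replicate 2 or 3, or WT replicate 2, it passed with WT Ngn3 too (0.0235, 0.039 and 0.0107). Ltbp2 and Ltbp4 did not pass. Bmp1, which despite its name encodes a protease that cuts procollagen and Chordin, rose from 131, 109 and 119 CPM to 200, 217 and 194 CPM with WT and 195, 201 and 190 CPM with 6S-A Ngn3. These rises, without overlap, were 0.78 on the log2 scale (SE 0.11, adjusted p = 0.000235) and 0.70 (SE 0.11, adjusted p = 0.000314).

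The direct comparison of 6S-A with WT Ngn3 asked whether the mutant changed any member more. At 2 days 0 of the 48 members passed, beside 0.0126% of all genes tested (3 genes). At an unadjusted p under 0.05 there were 6 (12.5%, beside 5.79% of all genes). DESeq2 called 1 and the replicate block 2, beside 0.424% and 0.617% of all genes. Bmp2 came nearest: all 6S-A replicates lay above all WT replicates, with a log2 difference of 0.70 (SE 0.16, 95% interval 0.36 to 1.04, adjusted p = 0.274). It passed with the replicate block (adjusted p = 0.0445) and in DESeq2. Tgfbr1 also passed with the block, at a log2 difference of 0.51 (adjusted p = 0.0164), and gave 0.48 (SE 0.23, adjusted p = 0.887) without it. For Fst the difference was -1.03 (SE 0.56, 95% interval -2.35 to 0.28, adjusted p = 0.955). The members that passed with 6S-A Ngn3 and not with WT Ngn3 are thus not shown to differ between the proteins. At 8 days 0 of 46 members passed, beside 0% of all genes, and 0 in DESeq2. At an unadjusted p under 0.05 there was 1 (2.17%), near the 2.11% of all genes.

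At 8 days each protein was compared with the mean of both no-color groups, to ask which differences are found later. Of 46 members tested, 1 rose with WT Ngn3 and 0 fell, beside 0.741% higher and 0.173% lower among the 19696 genes tested. With 6S-A Ngn3, 4 rose and 0 fell, beside 1.37% and 0.34%. Beside the 0 that fell, 12 and 14 members had an unadjusted p under 0.05 in either direction, or 26.1% and 30.4%, against 10.5% and 12.1% of all genes. DESeq2 called 4 higher with WT and 5 higher and 1 lower (Tgfb2) with 6S-A Ngn3, beside 1.77% higher and 1.03% lower, and 2.38% and 1.79%, of all genes. The medians of the 46 members were 0.41 and 0.30 on the log2 scale, against 0.01 and 0.035 over all genes.

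Bmp2 passed with both proteins. It was at 0.262, 2.83 and 0 CPM in no-color WT cells and 0.796, 1.71 and 0.984 CPM in no-color 6S-A cells, and at 6.31, 26.9 and 6.92 CPM with WT and 9.62, 27.7 and 13.5 CPM with 6S-A Ngn3. No Ngn3 replicate overlapped a control. Replicate 2 with WT Ngn3 is a single kept pool of 50 cells, and so is replicate 3 of every 8-day group. The log2 fold change was 3.49 (SE 0.77, adjusted p = 0.0423) with WT and 3.83 (SE 0.77, adjusted p = 0.0137) with 6S-A Ngn3. The other 3 passed with 6S-A Ngn3. Bmp6 was at 10.3, 15.4 and 14.8 CPM, above controls that ran from 1.15 to 5.90 CPM (log2 fold change 2.54, SE 0.56, adjusted p = 0.0262). With WT Ngn3 it was at 7.97, 10.2 and 11.1 CPM, also without overlap (2.08, SE 0.57, adjusted p = 0.108, and 0.041 with the replicate block). Bambi was at 50.1, 71.4 and 48.4 CPM, above controls of 3.70 to 40.3 CPM (2.20, SE 0.43, adjusted p = 0.0115). Tgfbr2 was at 393, 303 and 221 CPM, above controls of 74.9 to 185 CPM (1.29, SE 0.28, adjusted p = 0.0232).

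These 8-day calls were less firm than those of 2 days. Against the no-color cells of the same organoids alone, 0 members passed with either protein. There the log2 fold change of Bmp2 was 3.48 with WT and 3.84 with 6S-A Ngn3, near the values above, while with 6S-A Ngn3 that of Bambi was 1.32, of Bmp6 2.02 and of Tgfbr2 1.02. With passage 2 only, that is without replicate 3, a choice made after seeing the data, Bambi alone of the 4 passed with 6S-A Ngn3, and Ltbp2 in place of Bmp2 with WT Ngn3. Bmp2 with WT Ngn3 lost the call without 8 of the 12 replicates singly (adjusted p between 0.0616 and 0.363): each no-color 6S-A replicate, no-color WT replicates 1 and 3, WT Ngn3 replicates 1 and 2, and 6S-A Ngn3 replicate 2. Without WT Ngn3 replicate 2, the highest of its group, the log2 fold change was 2.51. With 6S-A Ngn3, Bmp2 and Bambi lost it without 6S-A replicate 2 (0.0853 and 0.0665). Bmp6 lost it without any 1 of the 6S-A Ngn3 replicates, no-color 6S-A replicate 1 or 2, or no-color WT replicate 1 (between 0.0549 and 0.0998). Tgfbr2 lost it without 6S-A Ngn3 replicate 1 or 2, no-color 6S-A replicate 2 or 3, or no-color WT replicate 1 (between 0.0624 and 0.138). Without no-color WT replicate 2 it passed with WT Ngn3 as well (0.0394). With the replicate block, 5 members passed with WT Ngn3 (Bmp1, Bmp2, Bmp6 and Tgfbr2 higher, Tgfb3 lower) and 5 with 6S-A Ngn3, where Tgfb3 fell beside the 4 that rose. The shares of all genes in that fit were 1.78% higher and 0.619% lower with WT, and 2.4% and 1.18% with 6S-A Ngn3. In that fit the adjusted p of Tgfb3 was 0.017 and 0.0078. The no-color groups themselves did not differ in any of 46 members at an adjusted p under 0.05, beside 0% of all genes. At an unadjusted p under 0.05 there were 4 members (8.7%), near the 8.37% of all genes, and DESeq2 called 0, beside 0.193% of all genes. Bambi was nonetheless at 6.16, 3.70 and 11.5 CPM in no-color WT cells and 14.3, 40.3 and 12.9 CPM in no-color 6S-A cells.

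Several members were uneven within the 8-day groups. Chrd had 0 reads in all 6 no-color replicates and was at 0.185, 3.52 and 0 CPM with WT and 8.77, 0 and 0 CPM with 6S-A Ngn3. Gdf10 reached 43.8 CPM in replicate 2 with 6S-A Ngn3 and 0 in the other two, and within that replicate the highest pool held 100 CPM. Replicate 3, of passage 5, was the lowest for Ltbp2 in each group of 8 days, at 0.922 CPM with 6S-A Ngn3 against 147 and 71.6 CPM in the other two, and for Fstl1, at 5.38 against 93.8 and 48.4 CPM. Vim was uneven too, at 99.1, 109 and 3.84 CPM with 6S-A Ngn3, 69.7, 63.7 and 23.3 CPM with WT Ngn3, 5.18, 119 and 1.73 CPM in no-color WT cells and 2.39, 59.9 and 0.123 CPM in no-color 6S-A cells. Replicate 2 of each control, the one high in Vim, also held its highest Bmp2. The summed endocrine markers, with Neurog3 of the transgene among them, ran from 53 to 4770 CPM with WT and from 176 to 5124 CPM with 6S-A Ngn3. The part of Vim and of the endocrine markers in these values was not tested. Passage and replicate cannot be told apart here.

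**Figure D4:**
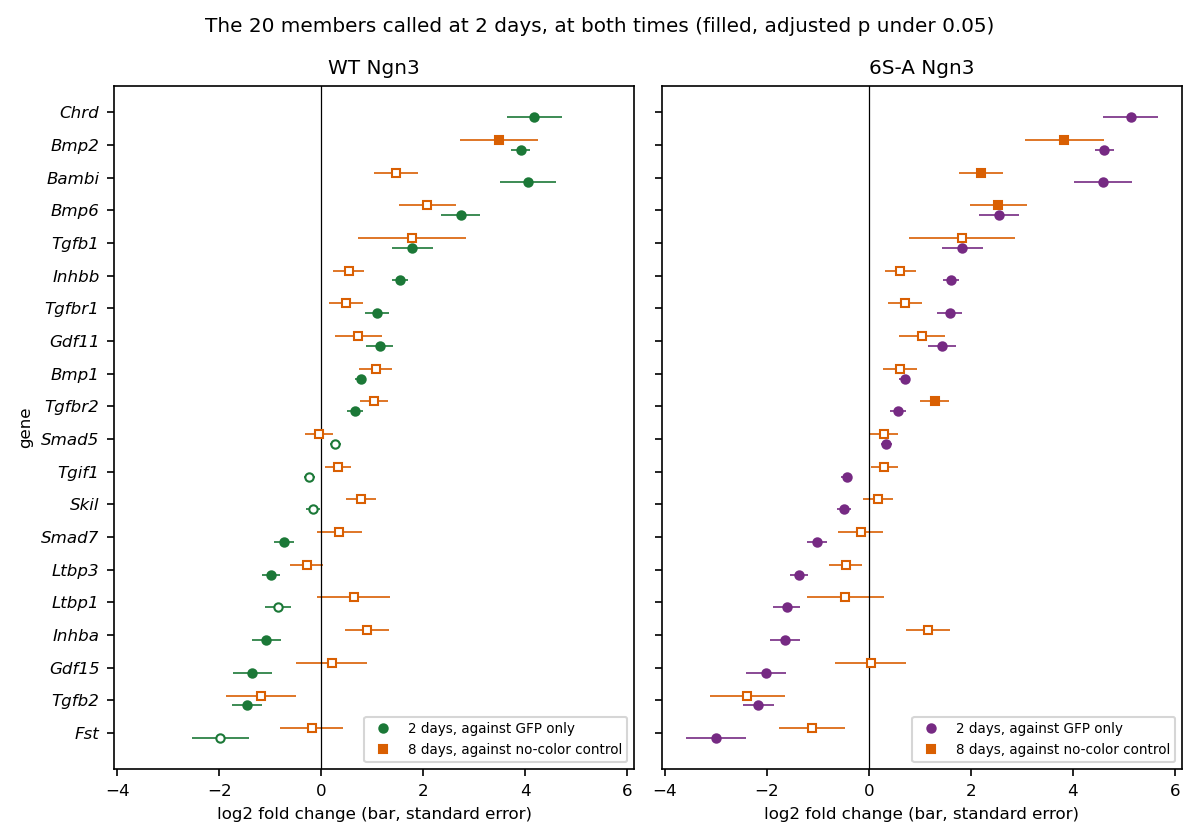
Log2 fold change (x axis) of the 20 members that passed at 2 days, with WT Ngn3 on the left and 6S-A Ngn3 on the right. Circles are 2 days against GFP only, squares 8 days against no-color cells, bars are standard errors and filled symbols have an adjusted p under 0.05; Chrd has no square because its 8-day controls held 0 reads. Filled squares are Bmp2 in both panels and Bmp6, Tgfbr2 and Bambi with 6S-A Ngn3, all on the right of 0.

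Whether the effect of Ngn3 differed between the times was tested for the mean of both proteins in a joint fit, in which the day and the kind of control cannot be told apart. Of 46 members 0 passed, beside 0.0715% of all genes. At an unadjusted p under 0.05 there were 14 (30.4%, beside 7% of all genes), and DESeq2 called 5, beside 0.801% of all genes. Inhba was nearest. Its log2 fold change, below 0 at 2 days, was 0.90 (SE 0.43, adjusted p = 0.485) with WT and 1.16 (SE 0.43, adjusted p = 0.243) with 6S-A Ngn3 at 8 days. The change between the times was 2.39 (SE 0.50, adjusted p = 0.0833). Without WT Ngn3 replicate 2 of 8 days it passed (adjusted p = 0.0174). For Bambi the change was -2.47 (SE 0.57, adjusted p = 0.134, and 0.0479 without no-color WT replicate 2), and for Inhbb it was -1.01 (SE 0.30, adjusted p = 0.315). With the replicate block within each day, 2 passed, beside 0.444% of all genes: Inhba (adjusted p = 0.019) and Fst (0.026), whose levels in the no-color cells ran from 8.12 to 62.1 CPM. Gdf15 was at 40.2 to 280 CPM in the no-color cells and 39.6 to 255 CPM in the Ngn3 cells of 8 days, which overlap, while the change between the times did not pass (1.82, SE 0.75, adjusted p = 0.636).

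Other genes of the pathway were described from 6 further lists of 92 genes, of which 74 were tested at 2 days. With WT Ngn3 12 rose and 5 fell, or 16.2% and 6.76% of those tested, beside 6.56% and 5.23% of all genes. With 6S-A Ngn3 12 rose and 7 fell, or 16.2% and 9.46%, beside 9.43% and 8.62%, so the shares that fell were near those of all genes. With the replicate block 13 rose and 8 fell with WT, and 17 rose and 10 fell with 6S-A Ngn3, beside 9.47% and 8.53%, and 12.7% and 12.1%, of all genes in that fit. Among 14 tested antagonists and ligand regulators, 4 rose and 1 fell with either protein (28.6% and 7.14%), and with the replicate block 5 rose and 2 fell with WT and 5 rose and 3 fell with 6S-A Ngn3. The largest changes were those of Tll2, a protease of the BMP1 family, with 1 read in all GFP-only replicates against 58 with WT Ngn3 (ratio 67.3, 95% exact counting interval 11.6 to 2702), of Htra1, a secreted protease (log2 fold change 3.01, SE 0.22, adjusted p = 1.39e-06), and of Fstl4, a Follistatin relative (2.25, SE 0.22, adjusted p = 2.05e-05). The other ligands added Gdnf, which acts through the kinase RET, at 1.94 (SE 0.54, adjusted p = 0.0313) as 1 of 7 tested (2 of 7 with the replicate block, with Bmp3 added). Of 8 tested receptors and co-receptors, 0 passed in edgeR with either protein, with or without the replicate block. With WT and 6S-A Ngn3, 0 and 1 had an unadjusted p under 0.05, beside 23% and 28.9% of all genes.

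Of 11 genes for the activation of latent TGF-beta, 2 rose and 1 fell with WT Ngn3 (18.2% and 9.09%, beside 6.56% and 5.23% of all genes), and 2 rose and 3 fell with 6S-A Ngn3 (18.2% and 27.3%, beside 9.43% and 8.62%). With the replicate block 1 rose and 2 fell with WT, and 2 rose and 3 fell with 6S-A Ngn3, beside 9.47% and 8.53%, and 12.7% and 12.1%, of all genes. Plat, a plasminogen activator, fell by 1.55 on the log2 scale (SE 0.18, adjusted p = 5.51e-05) with WT and by 2.03 (SE 0.18, adjusted p = 3.38e-06) with 6S-A Ngn3. Fbn1, for the microfibril protein that anchors latent complexes, rose by 2.05 (SE 0.61, adjusted p = 0.0452) and 1.89 (SE 0.61, adjusted p = 0.0478), calls that the replicate block ended (0.051 and 0.059). Fbn1 shares 2442 exonic bases with Gm9913 on the other strand. The integrin genes Itgav and Itgb8, whose products bind latent TGF-beta, also passed. Itgav rose by 0.71 (SE 0.15, adjusted p = 0.00735) with WT Ngn3 and missed the threshold with 6S-A Ngn3 (0.47, SE 0.15, adjusted p = 0.0501, and 0.0083 with the replicate block). Itgb8 rose by 1.20 (SE 0.38, adjusted p = 0.0417) with 6S-A Ngn3 and did not pass with WT (0.87, SE 0.38, adjusted p = 0.177). Of 18 regulators of SMADs, 1 passed with either protein (5.56%), Hipk2, at 0.70 (SE 0.11, adjusted p = 0.000654) and 0.78 (SE 0.11, adjusted p = 0.000167). Trim33 was higher too with the replicate block (adjusted p = 0.0136 with WT and 0.00098 with 6S-A Ngn3), and with 6S-A Ngn3 so were Nedd4l (0.0352) and Fkbp1a (0.0060).

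Of 16 tested genes that the pathway is known to regulate, 4 rose and 3 fell with either protein, or 25% and 18.8%, beside 6.56% and 5.23% of all genes with WT and 9.43% and 8.62% with 6S-A Ngn3. In the blocked fit 3 rose and 4 fell with WT, and 5 rose and 4 fell with 6S-A Ngn3, beside 9.47% and 8.53%, and 12.7% and 12.1%, of all genes. Atoh8, a bHLH gene, had 1 read in all GFP-only replicates and 723 with WT Ngn3 (ratio 839, 95% exact counting interval 150 to 33162). The authors name Atoh8 among the upregulated genes that they treat as potential targets of Ngn3, and a response to the pathway was not tested. Id4 rose by 3.95 on the log2 scale with WT Ngn3 (SE 0.51, adjusted p = 0.000154) and Snai2 by 2.84 (SE 0.33, adjusted p = 6.55e-05). Ccn2, a matricellular protein gene, fell by 1.09 (SE 0.25, adjusted p = 0.0139) with WT and by 1.75 (SE 0.25, adjusted p = 0.000514) with 6S-A Ngn3. Id1, a common readout of BMP signalling, was at 91.6, 149 and 138 CPM with GFP only, 156, 129 and 101 CPM with WT and 163, 158 and 179 CPM with 6S-A Ngn3, and did not pass (adjusted p = 0.95 and 0.168). At 8 days, 65 of the 92 were tested. With WT Ngn3, Fbn1, Id4 and Atoh8 rose and 0 fell, and with 6S-A Ngn3 Snai2 rose as well. These are 4.62% and 6.15% of those tested, beside 0.741% and 1.37% of all genes. Beside the 0 that fell, 15 and 8 had an unadjusted p under 0.05 in either direction, or 23.1% and 12.3%, against 10.5% and 12.1% of all genes. With the replicate block 7 rose and 1 fell with WT Ngn3, and 6 rose and 1 fell with 6S-A Ngn3. The shares of all genes in that fit were 1.78% higher and 0.619% lower with WT, and 2.4% and 1.18% with 6S-A Ngn3. Htra1 and Itgav were added with both proteins, and Trim33 and Snai2 with WT Ngn3. The gene that fell was Id2, with both (adjusted p = 0.0279 and 0.0113 with the block, 0.141 and 0.0845 without). The log2 fold change of Fbn1 was 5.02 (SE 1.03, adjusted p = 0.0272) and 4.63 (SE 1.01, adjusted p = 0.0243), with control replicates at no more than 0.918 CPM.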

How the data were processed

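The authors sorted pools of 50 cells, prepared Smart-seq2 libraries, aligned the reads with GSNAP (2015-09-29) to mm10 and counted them per gene of Ensembl with HTSeq (0.5.3p3), the versions and build being those of the submitters' processing notes. The deposited table holds these raw counts for 46078 genes and 92 spike-ins. The line for reads with several alignments is 0 throughout, so reads of near-identical genes may be missing. Whether strand was used is not given in the sources used here.

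Kept were 76 of 77 libraries, those with more than 1000000 reads on genes, more than 10000 detected genes and spike-ins below 30%. The 1 left out, of WT Ngn3 cells at 8 days, had 849278 reads on genes. Counts were summed per biological replicate. Genes detected in at least 5 kept libraries of a time point, with variance above 0, were tested with edgeR 4.0.16 in R 4.3.3 (TMM, robust dispersions, quasi-likelihood test, Benjamini-Hochberg over all genes tested, threshold 0.05), with all groups of a time point in 1 fit. SE is the absolute log2 fold change divided by the square root of F. The script was tested on simulated data. Ratios with few control reads carry an exact binomial interval at 95%, which covers counting error only, as these libraries carry no molecular identifiers. A floor of 3 reads was used.

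The members and the further lists were chosen with earlier results of these data known. Full values were given for members past the threshold against control, and at most 3 genes of each further list and comparison. Id1, Ccn2, Txndc5, Thpo and Vim, and genes called with the replicate block alone (Bmp3, Trim33, Nedd4l, Fkbp1a, Id2, and Htra1, Itgav and Snai2 at 8 days), were named outside that rule, after their values were seen. Of the further list, Gdf1 was not matched to 1 identifier. Exonic overlaps and coordinates are those of the reference annotation on GRCm38, and promoters those of RefSeq.

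Replicate numbers are shared between groups. Over genes with a mean of at least 10 CPM, deviations from the group means of same-numbered replicates correlated at 0.117 to 0.556 at 2 days (9 pairs) and 0.117 to 0.668 at 8 days (18 pairs), with medians of -0.128 and -0.263 for different numbers. Deviations within a group sum to 0, so the values for different numbers are tied to the others and are no separate evidence. Over all genes tested the lowest were 0.0436 and 0.069. By the same-number values at 10 CPM the numbers pair the samples. The reported fit has no block, and blocked values are given beside it where they change the call of a member, and as counts for the further lists. Alternatives were scran 1.30.0 and DESeq2 1.42.0 size factors, the DESeq2 test, other filters, no library limits, first technical repeats, own no-color groups, the block, leaving out replicates, and, added after seeing the data, passage 2 only.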

Additional observations from a re-analysis of the deposited data

How the results depend on the processing

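At 2 days the number of members called kept within 1.5 times under every alternative run: 13 to 19 with WT Ngn3 and 14 to 24 with 6S-A Ngn3, against 15 and 20, the replicate block giving 19 and 24. Leaving out a replicate gave 11 to 16 and 17 to 21. No called member changed direction in 705 recomputed fold changes, of which 85 lost the call. First technical repeats alone ended the calls of Bmp6, Gdf11, Tgfbr2 and Chrd with both proteins, of Tgfb2 with WT Ngn3, and of Bmp1, Smad5, Skil and Tgif1 with 6S-A Ngn3, and they gave log2 fold changes of 0.87 and 0.52 for Bmp6 and 2.36 and 2.17 for Chrd. Fst with WT Ngn3, not called, passed in DESeq2, with edgeR's own filter and with first technical repeats. No filter ended the calls of Gdf15 and Tgfbr1 with WT and of Smad5 with 6S-A Ngn3. For 6S-A against WT Ngn3 at 2 days the count of 0 became 1 in DESeq2 (Bmp2), 1 with no filter (Bmp2), 1 with first technical repeats (Fst) and 2 with the replicate block (Bmp2, Tgfbr1), and stayed 0 without any 1 replicate.

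At 8 days the count of 1 with WT Ngn3 became 0 with edgeR's own filter, first technical repeats or the own no-color group, 4 in DESeq2, 4 with no filter and 5 with the replicate block, and 0 to 2 without a replicate. The count of 4 with 6S-A Ngn3 became 10 with no filter, 2 with first technical repeats, 1 with passage 2 only, 0 with the own no-color group and 5 with the block, and 0 to 4 without a replicate. For 6S-A against WT Ngn3 and for the no-color groups, no filter gave 1 (Gdf10), and leaving out a replicate gave 0. The change between the times gave 5 in DESeq2, 6 with no filter, 2 with the replicate block, 1 with passage 2 only (Ltbp2) and 0 to 1 without a replicate. The fits of first technical repeats at 2 days and of no filter at 8 days and across the times gave all genes 1 common spread (136074 to 456470 degrees of freedom, against 13.7 to 21.1 in the fits reported), so calls gained in them do not rest on the gene's own spread. Other causes were not tested. The median level of the members was 23.9 CPM with TMM, 25.1 with plain library sizes and 24.7 over single pools. The own no-color groups and passage 2 only rest on fewer samples, and the lowest 8-day replicate held 2397470 reads.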
